A study of Saccharomyces cerevisiae with 16 samples.

Results

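Budding yeast represses the uptake and breakdown of poor nitrogen sources while good ones are at hand, a response called nitrogen catabolite repression (NCR). Its targets are switched by GATA factors, of which the activators Gln3 and Gat1 and the repressor Dal80 belong to the genes described here. The genes were taken by name: the ammonium permeases *MEP1* (YGR121C), *MEP2* (YNL142W) and *MEP3* (YPR138C), the general amino acid permease *GAP1* (YKR039W), the allantoate permease *DAL5* (YJR152W), the GATA factors *GLN3* (YER040W), *GAT1* (YFL021W) and *DAL80* (YKR034W), the arginase *CAR1* (YPL111W) and the ornithine aminotransferase *CAR2* (YLR438W). All 10 had a probe among the 6256 genes of the array. Starvation for nitrogen is one of the signals that start meiosis in yeast, Mep2 also acts as an ammonium sensor in filamentous growth, and *CAR1* is repressed through a URS1 element by Ume6, as early meiotic genes are.

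The time course compared wild type cells (WT, strain DSY1089) with cells that lack the meiotic kinase gene *IME2* (*ime2Δ*, strain YGB221) at 0, 2, 4 and 6 h after meiotic induction, with 2 arrays in each of the 8 groups and 16 arrays in all. Both strains are **a**/α diploids with ho::LYS2, lys2, ura3, leu2::hisG and trp1::hisG, with arg4-BglII over arg4-NspI and his4B over his4X, and YGB221 is in addition homozygous for ime2Δ::TRP1. Each genotype was represented by 1 strain. Cells grown in YPD and then in acetate medium (YPA) were washed and resuspended in sporulation medium with acetate, raffinose and supplements for their auxotrophies, and aliquots were taken over time, so that the times of a replicate may share a culture. Total RNA was hybridized to single color 60-mer arrays.

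Values are given as the log2 signal of a gene's probe over the median of its array, so that 0 is the median probe. Groups were compared with limma, and a change was called at an adjusted p under 0.05 over all genes of the array other than *IME2* and *TRP1*. The probe of *IME2* was well above background on 8 of 8 WT arrays and on 0 of 8 *ime2Δ* arrays. Median processed signals lay between 7579.6 and 14875.1, replicate arrays correlated at r of 0.988 to 0.994 over genes, and the 10 probes were well above background on all 16 arrays. The replicate number is also the slide, each of which held all 8 groups, while strain lay in the slide's columns and time in its rows, so that strain and column, and time and row, cannot be told apart. Probe brightness was not compared between genes. In whole cultures, fewer cells with a transcript and less transcript per cell cannot be told apart.

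Some marker genes moved with time and strain. Of 11 early meiotic genes with URS1 elements that were on the array, 11 rose at 2, 4 and 6 h in both strains. The median log2 change at 6 h was 4.23 in WT cells against 5.78 without *IME2*, from a lower start. Their mean log2 level at 0 h was −2.85 to −2.41 in WT cells against −3.96 to −3.60 in *ime2Δ* cells. At 6 h it was 1.84 to 2.02 in WT cells against 1.47 to 1.60 in *ime2Δ* cells. Of 12 middle sporulation genes, 12 rose from 0 to 6 h in WT cells (median 6.62), whereas 8 rose and 3 fell in *ime2Δ* cells (median 0.70). The mean log2 level of that list lay between −1.57 and −1.49 at 0 h in WT cells and between −3.43 and −3.21 at 0 h in *ime2Δ* cells, and at 6 h between 4.22 and 4.63 against −2.93 and −2.88. Of 10 mating and haploid genes, 9 rose and 0 fell by 6 h in WT cells, with mean list levels of 0.17 to 0.30, against 7 and 1 in *ime2Δ* cells, with −1.84 to −1.74. What part these markers have in the changes of nitrogen genes was not tested.

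The transporter genes *MEP2*, *MEP3* and *GAP1* gave the largest differences between the strains at 6 h among the 10 genes. In WT cells their signal fell in steps from 0 to 6 h, by 12.9-fold for *MEP2*, 8.33-fold for *GAP1* and 7.11-fold for *MEP3*. In *ime2Δ* cells the signal of all 3 at 6 h was close to that at 0 h. The 2 strains were near each other at 2 h and apart at 4 h.

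*MEP2* encodes the ammonium permease with the highest affinity. Its log2 signals in WT cells were 3.57 and 3.33 at 0 h, 2.65 and 2.76 at 2 h, 0.48 and 0.74 at 4 h, and −0.35 and −0.12 at 6 h. In *ime2Δ* cells they were 2.74 and 2.96, 2.88 and 2.69, 3.69 and 3.43, and 2.78 and 3.01 at the same times. Thus the WT arrays at 4 and 6 h lay below all the others for this gene, and the highest pair came from *ime2Δ* cells at 4 h. In WT cells *MEP2* changed by −0.75 at 2 h (limma, adjusted p = 0.0041), −2.84 at 4 h (6.63e-08) and −3.69 at 6 h (2.28e-09), with −3.92 and −3.45 within the replicates at 6 h. In *ime2Δ* cells *MEP2* rose by 0.71 at 4 h (adjusted p = 0.00542), a call lost without *ime2Δ* 4 h replicate 1 (0.58, adjusted p = 0.0525), and differed from 0 h by 0.04 at 6 h (95% interval −0.34 to 0.43, adjusted p = 0.85). Under quantile normalization the 2 h fall in WT cells was no longer called (−0.39, adjusted p = 0.11), and the 6 h difference in *ime2Δ* cells was (0.49, adjusted p = 0.044).

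*MEP3* and *GAP1* ran alongside. For *MEP3*, an ammonium permease of lower affinity, the WT values were 1.99 and 1.76 at 0 h, 1.15 and 0.84 at 2 h, 0.23 and −0.08 at 4 h, and −1.15 and −0.77 at 6 h. The *ime2Δ* values stayed between 0.86 and 1.55 over the 8 arrays. *GAP1*, which takes up most amino acids, gave 4.48 and 4.21, 3.25 and 3.25, 1.71 and 2.54, and 1.32 and 1.26 in WT cells at 0, 2, 4 and 6 h, against 3.37 to 3.91 over the 8 *ime2Δ* arrays. For both genes the 2 WT arrays at 0 h were above all *ime2Δ* arrays, and the 4 WT arrays at 4 and 6 h were below all of them. The changes in WT cells from 0 to 6 h were −2.83 ± 0.20 (SE) for *MEP3* (limma, adjusted p = 7.09e-08) and −3.06 ± 0.24 for *GAP1* (adjusted p = 1.83e-07). In *ime2Δ* cells the changes were 0.05 (95% interval −0.39 to 0.49) and −0.12 (−0.65 to 0.41). At 4 h the *ime2Δ* value of *MEP3* was called above 0 h under the 75th percentile (0.71, adjusted p = 0.00952) and quantile normalization (0.67, 0.0164), though not in the median scaling.

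**Figure D1:**
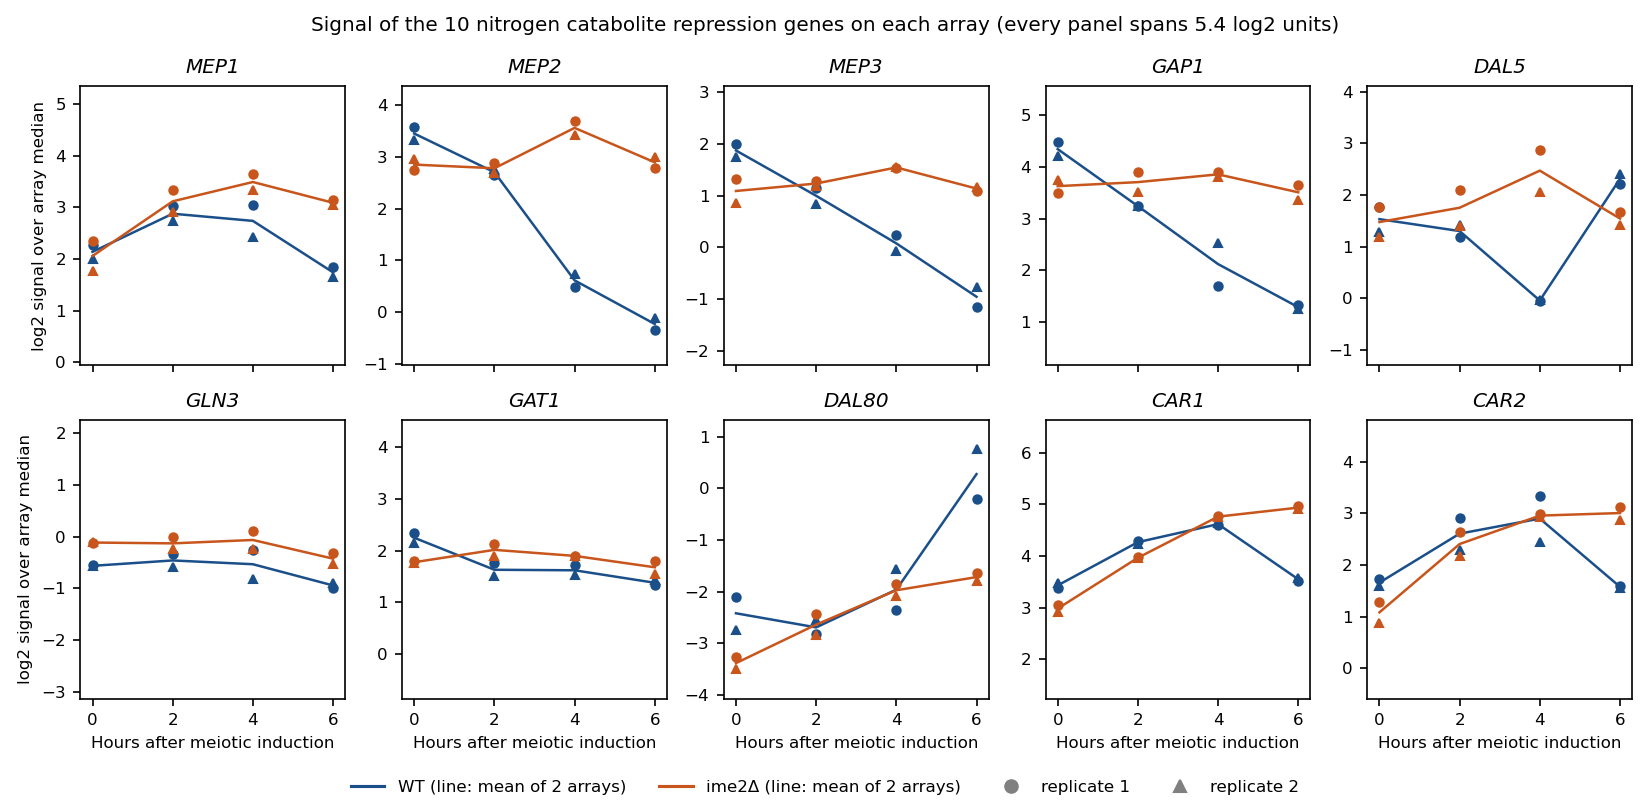
Log2 signal over the array median against hours after meiotic induction, 1 panel for each of the 10 genes, with circles and triangles for replicates 1 and 2 and lines through the mean of 2 arrays, WT in blue and *ime2Δ* in orange. In WT cells *MEP2* ran from 3.57 and 3.33 at 0 h to −0.35 and −0.12 at 6 h, whereas in *ime2Δ* cells it was 2.78 and 3.01 at 6 h; panels differ in offset but each spans the same range.

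*MEP1*, an ammonium permease of intermediate affinity, did not run with them. Its signal rose at 2 h in both strains, from 2.27 and 2.00 to 3.02 and 2.73 in WT cells and from 2.35 and 1.76 to 3.33 and 2.90 in *ime2Δ* cells. The rise was 0.74 in WT cells (limma, adjusted p = 0.0302) and 1.06 in *ime2Δ* cells (0.00578). The WT arrays read 3.05 and 2.42 at 4 h, against 3.65 and 3.33 in the mutant. At 6 h they were 1.84 and 1.64 against 3.13 and 3.04, so that the WT pair lay below its own 0 h pair and the *ime2Δ* pair well above. At 6 h *ime2Δ* cells remained 1.03 above 0 h (adjusted p = 0.00454). The WT changes of 0.60 at 4 h (adjusted p = 0.0581) and −0.40 at 6 h (0.183) were not called, but both were with the replicate number as a block (0.00533 and 0.0396). The 4 h change was also called under the 75th percentile (0.81, 0.0151), quantile normalization (0.98, 0.00502) and normexp (0.61, 0.0489), and without *ime2Δ* 0 h replicate 1 or *ime2Δ* 0 h replicate 2 (0.0444 for each). It was 0.29 (0.411) without WT 4 h replicate 1 and 0.91 (0.0177) without WT 4 h replicate 2. The WT rise at 2 h was lost without WT 0 h replicate 2 (0.60, adjusted p = 0.161) or WT 2 h replicate 1 (0.59, 0.162). In *ime2Δ* cells the rise at 2 h was lost without *ime2Δ* 0 h replicate 2 (0.76, 0.0683) or *ime2Δ* 2 h replicate 1 (0.84, 0.0632), and that at 6 h without *ime2Δ* 0 h replicate 2 (0.73, 0.0588).

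*DAL5*, whose product imports allantoate, ureidosuccinate and some dipeptides, had a different profile again. In WT cells its signal was 1.77 and 1.29 at 0 h, 1.19 and 1.41 at 2 h, −0.06 and −0.02 at 4 h, and 2.21 and 2.41 at 6 h. *DAL5* in *ime2Δ* cells was 1.77 and 1.18, 2.10 and 1.41, 2.88 and 2.06, and 1.68 and 1.41. The 4 h pair was therefore the lowest of all groups in WT cells and held the highest array in *ime2Δ* cells. In WT cells *DAL5* fell by 1.58 at 4 h (limma, adjusted p = 0.000556) and was 0.78 above 0 h at 6 h (0.0343). In *ime2Δ* cells it was 0.99 above 0 h at 4 h (0.0155). The WT call at 6 h was lost without WT 0 h replicate 2 (0.54, 0.217), WT 6 h replicate 1 (0.88, 0.062) or WT 6 h replicate 2 (0.68, 0.141), and under normexp (0.73, 0.0612), and the *ime2Δ* call at 4 h without *ime2Δ* 0 h replicate 2 (0.70, 0.14) or *ime2Δ* 4 h replicate 1 (0.59, 0.169).

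Of the GATA factors, the repressor gene *DAL80* had the widest range. Its values in WT cells were −2.10 and −2.73 at 0 h, −2.82 and −2.56 at 2 h, −2.36 and −1.56 at 4 h, and −0.21 and 0.76 at 6 h. In *ime2Δ* cells they were −3.27 and −3.50, −2.44 and −2.83, −1.85 and −2.09, and −1.65 and −1.79. The WT pair at 6 h was above every other array, although its 2 arrays differed by more than those of any other group for this gene, and the *ime2Δ* pair at 0 h was below every other array. *DAL80* rose 6.47-fold by 6 h in WT cells (log2 2.69 ± 0.33, SE, limma adjusted p = 8.69e-06), with 1.89 and 3.49 within the replicates. In *ime2Δ* cells it rose 2.66-fold by 4 h (adjusted p = 0.00341) and 3.17-fold by 6 h (0.00102). Its 2 h difference in *ime2Δ* cells (0.75, 0.0906) was not called with median scaling. It was called under the 75th percentile (1.00, 0.0253) and with only the arrays compared (0.035).

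The activator genes moved less. *GAT1* was at 2.35 and 2.16 in WT cells at 0 h and at 1.33 and 1.43 at 6 h, and between 1.55 and 2.13 on the 8 *ime2Δ* arrays. In WT cells *GAT1* fell by 0.62 at 2 h (limma, adjusted p = 0.0076), 0.63 at 4 h (0.00478) and 0.87 at 6 h (0.000363), whereas none of its changes in *ime2Δ* cells was called with median scaling, though a rise at 2 h was under the 75th percentile (0.50, 0.0248) and quantile normalization (0.53, 0.0183), and one at 4 h under quantile normalization (0.41, 0.044). The 2 h fall was lost under scaling to the 75th percentile (−0.36, 0.0798) and quantile normalization (−0.33, 0.103) and without WT 0 h replicate 1 (−0.52, 0.0665) or WT 2 h replicate 2 (−0.49, 0.0822), and the 4 h fall under quantile normalization (−0.37, 0.0539). *GLN3* lay between −0.98 and −0.25 on the 8 WT arrays and between −0.54 and 0.12 on the 8 *ime2Δ* arrays. None of its changes with time was called in either strain, and its 8 group means spanned 0.88.

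*CAR1* and *CAR2* encode consecutive steps of arginine breakdown. Both rose at 2 and 4 h in both strains. At 6 h the WT signal was back near its 0 h level while that of *ime2Δ* cells was at its highest mean. *CAR1* gave 3.38 and 3.48, 4.30 and 4.24, 4.60 and 4.64, and 3.53 and 3.57 in WT cells at 0, 2, 4 and 6 h. The *ime2Δ* values for *CAR1* were 3.05 and 2.91, 3.97 and 3.96, 4.77 and 4.75, and 4.97 and 4.90. Replicates of *CAR1* lay within an SD of 0.10 in every group, the closest of the 10 genes by their median SD. *CAR2* gave 1.73 and 1.59, 2.92 and 2.30, 3.35 and 2.45, and 1.60 and 1.56 in WT cells and 1.28 and 0.88, 2.63 and 2.18, 2.98 and 2.93, and 3.13 and 2.88 in *ime2Δ* cells.

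From 0 to 4 h *CAR1* rose by 1.19 in WT cells (limma, adjusted p = 8.62e-06) and by 1.78 in *ime2Δ* cells (8.42e-07), and *CAR2* by 1.24 (0.0021) and 1.87 (0.000164). At 6 h *CAR1* was 3.88-fold and *CAR2* 3.79-fold above 0 h in *ime2Δ* cells (adjusted p = 3.26e-07 and 0.000118). In WT cells the 6 h differences were 0.12 for *CAR1* (95% interval −0.17 to 0.41, adjusted p = 0.452) and −0.08 for *CAR2* (−0.70 to 0.54, 0.817). The early meiotic genes with URS1 were all still above 0 h in WT cells at 6 h, where *CAR1* and *CAR2* did not pass the test. The median WT change of these URS1 genes was nonetheless smaller at 6 h (4.23) than at 4 h (4.86). When the strains' changes to 6 h were tested against each other, 6 of the 11 URS1 genes were called. Of all genes, 25.1% had a lower and 25.0% a higher change in WT cells. All 6 of these URS1 genes had the smaller rise in WT cells, and the list's median difference was −1.26. *CAR1* (−1.84) and *CAR2* (−2.00) differed in the same direction. Levels at 6 h did not: 3 URS1 genes were higher and 0 lower in WT cells (median 0.40). There *CAR1* (−1.39) and *CAR2* (−1.43) were lower, and 31.1% of all genes were higher and 33.1% lower. At 0 h 6 URS1 genes were higher and 0 lower in WT cells (median 1.44), against 3.26% and 1.41% of all genes. Whether URS1 has a part in the changes of *CAR1* and *CAR2* was not tested. For *CAR2* in WT cells the 2 h call was lost without WT 0 h replicate 2 (0.87, 0.0764) or WT 2 h replicate 1 (0.64, 0.141), and the 4 h rise was 0.79 without WT 4 h replicate 1.

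Counted over the 10 genes, 3 were higher and 4 lower at 2 h than at 0 h in WT cells, where 22.2% and 27.2% of all genes were called higher and lower. At 4 h the counts were 2 and 5 (30.7% and 31.8% of all genes), and at 6 h 2 and 4 (35.3% and 35.7%). In *ime2Δ* cells 3, 6 and 4 of the 10 were higher at 2, 4 and 6 h, against 17.6%, 23.4% and 24.5% of all genes. In that strain 0 were lower at any of the 3 times (limma), where 22.1%, 26.9% and 30.1% of all genes were, and 4, 7 and 4 of the 10 passed an unadjusted p of 0.05 in either direction, against 49.0%, 56.6% and 60.01% of all genes. With 10 genes, the shares called in WT cells were thus not far from the background, since much of the array moved.

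**Figure D2:**
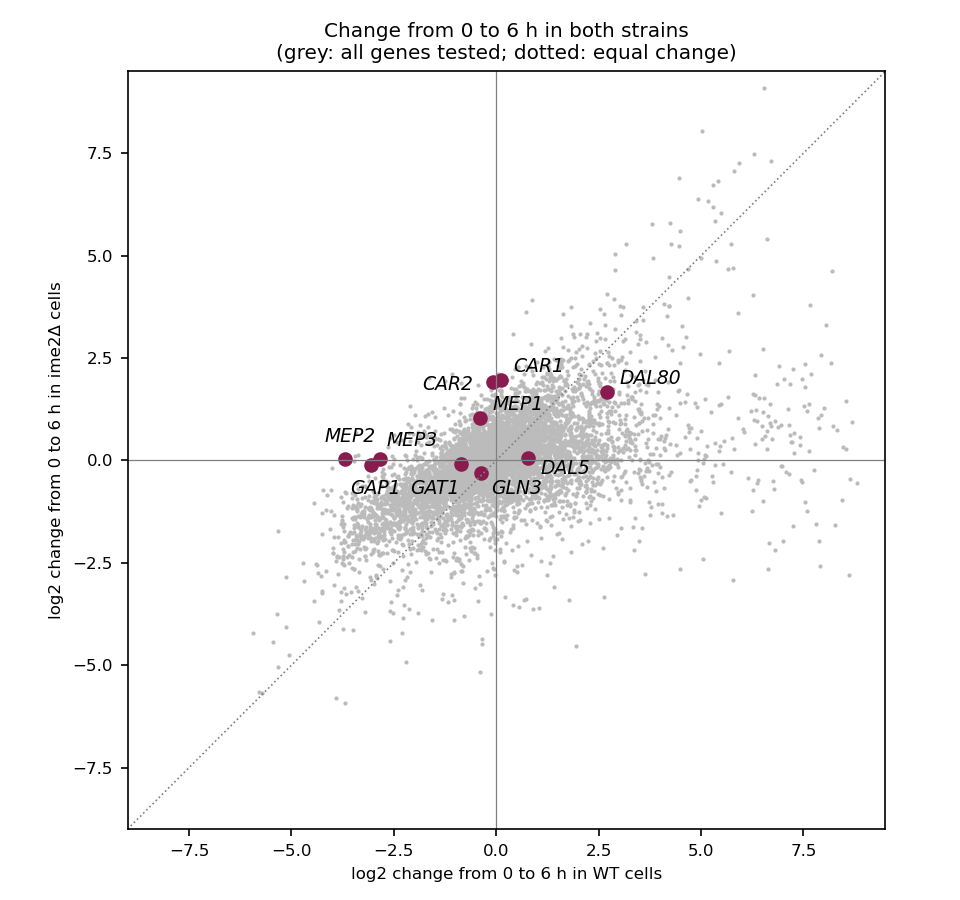
Log2 change from 0 to 6 h in *ime2Δ* cells against that in WT cells for all genes tested (grey points), with the 10 nitrogen genes named and a dotted line of equal change. *MEP2*, *GAP1* and *MEP3* lie near 0 on the vertical axis and at −3.69, −3.06 and −2.83 on the horizontal axis, and *CAR1* and *CAR2* at 1.95 and 1.92 on the vertical axis and near 0 on the horizontal axis.

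Setting the strains side by side asks where *ime2Δ* cells had another level than WT cells. Both strains are trp1::hisG and only YGB221 carries *TRP1* in place of *IME2*. Loss of *IME2* and gain of *TRP1* therefore cannot be told apart in any comparison of the strains. At 0 h 1 of the 10 genes was called, *MEP3*, higher in WT cells by 0.78 (limma, adjusted p = 0.0474), where 3.26% of all genes were higher and 1.41% lower. That call was lost without any 1 of 12 of the 16 arrays (values 0.56 to 1.01, adjusted p 0.057 to 0.281 where lost). In all 9 of the 10 genes had a difference above 0 at 0 h, the largest that of *DAL80* (0.96, limma adjusted p = 0.117). An unadjusted p under 0.05 was reached by 7 of the 10, against 20.2% of all genes. These 7 included *GAP1* (0.72, adjusted p = 0.116), *MEP2* (0.60, 0.0783), *GAT1* (0.47, 0.121) and *CAR1* (0.45, 0.0812). They also included *GLN3*, which was lower in WT cells (−0.45, 0.238). At 2 h 0 of the 10 genes differed in either direction, while 9.05% and 4.54% of all genes were higher and lower in WT cells, and 2 of the 10 had an unadjusted p under 0.05, against 27.4% of all genes.

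At 4 h 5 of the 10 were lower in WT cells than in *ime2Δ* cells (14.2% of all genes) and 0 higher (16.9%). *MEP2* was lower by 2.95 ± 0.18 (SE, limma adjusted p = 6.33e-08), and 4 genes of the array had a more negative difference. *DAL5* was lower by 2.51 ± 0.30 (5.48e-05), with 14 genes more negative. *GAP1* (−1.74, adjusted p = 0.000204), *MEP3* (−1.47, 0.000176) and *MEP1* (−0.75, 0.0408) followed. The *MEP1* call was lost without WT 4 h replicate 2 (−0.44, 0.292), *ime2Δ* 4 h replicate 1 (−0.59, 0.248) or *ime2Δ* 4 h replicate 2 (−0.91, 0.0525), and under quantile normalization (−0.69, 0.0552), normexp (−0.69, 0.0554) and with only the arrays compared (0.084). For *GLN3* (−0.47, adjusted p = 0.0991) the difference was called with the replicate block (0.0453) and without WT 4 h replicate 1 (−0.75, 0.0247), and was −0.19 (0.561) without WT 4 h replicate 2 and −0.29 (0.485) without *ime2Δ* 4 h replicate 1.

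At 6 h 7 of the 10 were lower in WT cells, where 33.1% of all genes were, and 2 were higher, where 31.1% were. The lower ones were the 3 ammonium permease genes, *GAP1*, both arginine genes and *GLN3*. *MEP2* differed 8.75-fold (limma, adjusted p = 1.17e-08), *GAP1* 4.67-fold (6.42e-06), *MEP3* 4.27-fold (1.96e-06), *CAR2* 2.69-fold (0.000805), *CAR1* 2.61-fold (2.13e-06) and *MEP1* 2.54-fold (0.000565). *DAL80* was 3.98-fold higher in WT cells (0.000197) and *DAL5* 1.70-fold (0.0406). The median difference of the 10 genes was −1.37 beside −0.10 over all genes. For *DAL5* the call was lost without any 1 of 6 arrays (0.63 to 0.90, adjusted p 0.0505 to 0.173 where lost) and under both other scalings (0.48, 0.17 for the 75th percentile, and 0.46, 0.189 for quantile normalization). The call of *GLN3* (−0.52, 0.0396) was lost without any 1 of 6 arrays (−0.63 to −0.41, 0.0506 to 0.189), and under quantile normalization (−0.41, 0.112), normexp (−0.49, 0.0514) and with only the arrays compared (0.086). *GAT1* (−0.30, 0.126) was called under the 75th percentile (−0.58, 0.00603) and quantile normalization (−0.60, 0.00444). At this time 48.4% of called genes of the array were higher in WT cells, a share that was 35.6% under the 75th percentile and 39.0% under quantile normalization.

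**Figure D3:**
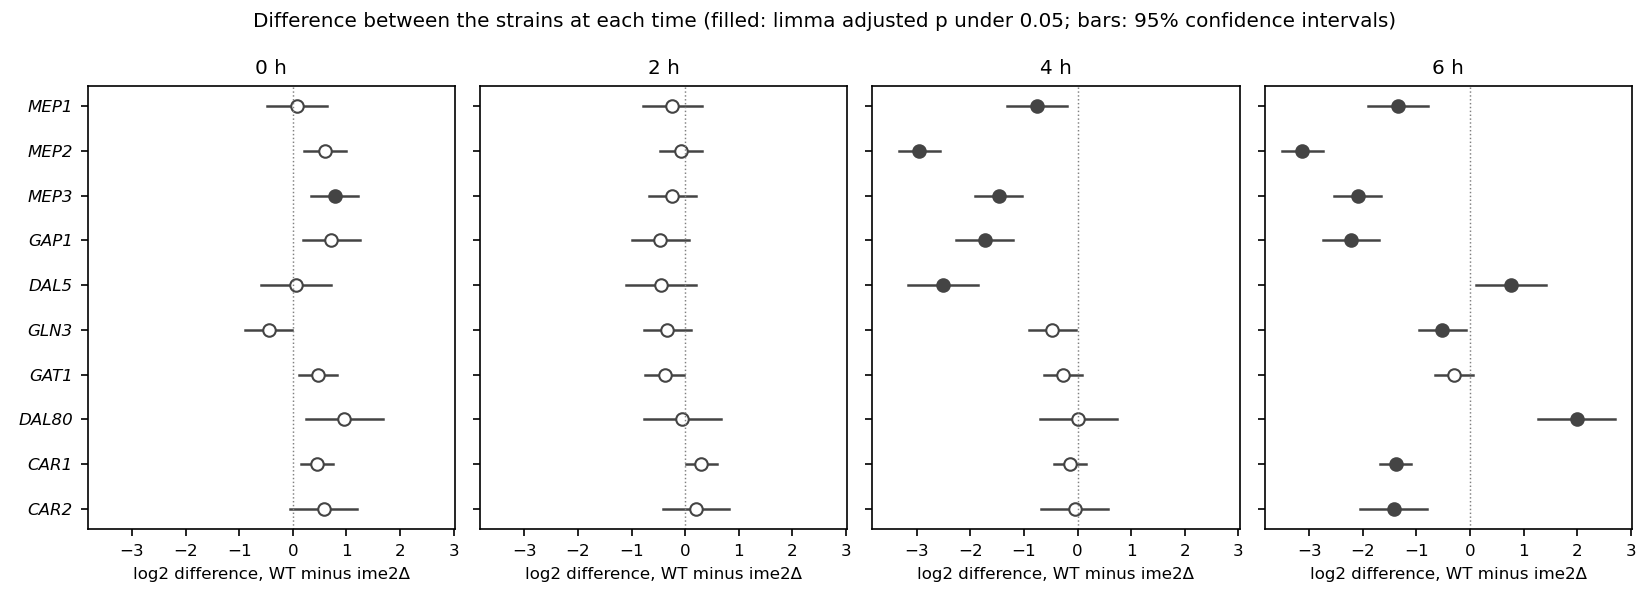
Difference in log2 signal between WT and *ime2Δ* cells at 0, 2, 4 and 6 h for each of the 10 genes, with 95% intervals of the limma fit and filled points where the adjusted p was under 0.05. *MEP2*, *MEP3* and *GAP1* lie at or right of 0 at 0 h and at −3.13, −2.09 and −2.22 at 6 h, *DAL5* lies at −2.51 at 4 h and 0.77 at 6 h, and *DAL80* at 1.99 at 6 h.

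At 0 h 9 of the 10 genes had a difference above 0, though only that of *MEP3* was called. The difference in change from 0 h was tested as well. It shares its 0 h arrays with the comparisons within each strain. From 0 to 2 h 0 of the 10 differed (2.46% of all genes had a higher and 0.863% a lower change in WT cells), with 5 of the 10 and 15.8% of all genes at an unadjusted p under 0.05. *GAT1* (−0.86, limma adjusted p = 0.0705) and *MEP3* (−1.02, 0.0796) were called with the replicate block (0.0301 and 0.0463), and *GAT1* under quantile normalization (0.0484). *GAP1* (−1.18, 0.0932) was called without WT 4 h replicate 1 or WT 4 h replicate 2 (0.0342 for each).

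From 0 to 4 h the change was lower in WT cells for 5 of the 10 (6.20% of all genes) and higher for 0 (9.37%). The 5 were *MEP2* (−3.55, limma adjusted p = 1.3e-06), *DAL5* (−2.57, 0.00156), *GAP1* (−2.45, 0.000475), *MEP3* (−2.25, 0.000206) and *GAT1* (−0.75, 0.0457). *GAT1* was no longer called without any 1 of 11 arrays (−0.85 to −0.65, adjusted p 0.0561 to 0.146 where lost) or with only the arrays compared (0.0722). *MEP1* (−0.83, 0.141) and *CAR1* (−0.59, 0.0537) were called with the replicate block (0.0218 and 0.0402), and *CAR1* also under the 75th percentile (−0.64, 0.0435) and without WT 6 h replicate 1 or WT 6 h replicate 2 (0.0459 for each). *MEP1* was −0.52 (0.389) without WT 4 h replicate 2 and −0.53 (0.368) without *ime2Δ* 0 h replicate 2.

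From 0 to 6 h the change was lower in WT cells for 7 of the 10 (25.1% of all genes) and higher for 0 (25.0%). *MEP2* had the most negative value, −3.73 (95% interval −4.28 to −3.18, limma adjusted p = 1.46e-07), with −3.96 and −3.50 within the replicates, and 2 genes of the array were more negative. *GAP1* (−2.94, adjusted p = 2.21e-05), *MEP3* (−2.88, 5.28e-06), *CAR2* (−2.00, 0.00147), *CAR1* (−1.84, 7.81e-06), *MEP1* (−1.43, 0.00607) and *GAT1* (−0.77, 0.0149) were the others. For *GAT1* the call was lost without WT 0 h replicate 1 (−0.68, 0.0611) or *ime2Δ* 6 h replicate 1 (−0.65, 0.0587). *DAL80* rose in both strains, and its change was not shown to differ (1.03, 95% interval 0.01 to 2.04, adjusted p = 0.0848), though it was called without WT 0 h replicate 1 (1.34, 0.0493) or WT 6 h replicate 1 (1.51, 0.0148) and under quantile normalization (1.27, 0.0318). Without WT 6 h replicate 2 it was 0.54 (0.347). That of *DAL5* was 0.71 (−0.22 to 1.64, 0.185).

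The profiles of the 10 genes fell into several shapes, described here by Pearson's r over the 8 group means, which rest on the same arrays. *MEP2*, *MEP3* and *GAP1* ran together (r = 0.977 to 0.992). *CAR1* and *CAR2* ran together as well (r = 0.982), and *MEP1* was closer to them (0.817 and 0.869) than the other transporters were. *DAL80* had a negative r with *GLN3* (−0.759), *MEP3* (−0.751), *GAP1* (−0.748), *MEP2* (−0.715) and *GAT1* (−0.579). From 0 to 4 h in *ime2Δ* cells *DAL80* (1.41) and *MEP2* (0.71) both rose, and the *MEP2* call was lost without *ime2Δ* 4 h replicate 1 (0.58). No change of *GLN3* with time was called in either strain. Whether the GATA factors have a part in these profiles was not tested. Among 5863 genes well above background on all arrays, the profiles nearest to *MEP2* were those of *THI73* (0.980) and *MRH1* (0.976), and those nearest to *GAP1* were *ILV3* (0.990) and *THI73* (0.989). For *MEP3* they were *DPH6* and *DSS1*, for *MEP1* *ESBP6* and YPR015C, for *DAL80* *RRD2* and YIL141W, for *CAR1* *COQ6* and *FMP42*, and for *CAR2* YDR415C and YDR543C. Between 120 and 348 genes reached an r of 0.9 with each of these members, whereas *DAL5* had 1, *SAK1* (0.910), followed by *TCB1* (0.889).

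Another 32 genes of nitrogen metabolism and its control were read on the same arrays, 9 transporters, 14 enzymes and 9 regulators. In WT cells 6 rose and 17 fell from 0 to 6 h (35.3% and 35.7% of all genes), with a median change of −0.92 beside −0.01 over all genes. In *ime2Δ* cells 11 rose and 5 fell (24.5% and 30.1%), with a median of 0.18 beside −0.10. The classes differed in WT cells: 0 enzymes rose and 10 fell (median −1.35), 4 transporters rose and 4 fell (−0.39), and 2 regulators rose and 3 fell (0.12). The medians in *ime2Δ* cells were −0.13, 0.31 and 0.26. At 6 h 16 of the 32 were lower and 8 higher in WT cells than in *ime2Δ* cells, where 33.1% and 31.1% of all genes were, and the change from 0 h was lower for 16 and higher for 4 (25.1% and 25.0% of all genes).

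The 3 with the greatest change in WT cells were *PUT1*, *DUR1,2* and *ARG82*. *PUT1*, for proline oxidase, fell in both strains, by 3.80 in WT cells (limma, adjusted p = 7.68e-07) and 3.44 in *ime2Δ* cells (7.33e-06). *DUR1,2*, for urea amidolyase, fell by 3.46 in WT cells (3.62e-08) and changed by 0.11 in *ime2Δ* cells (0.71), and the strains differed in this change by −3.57 (2.36e-06). *ARG82*, for an inositol polyphosphate multikinase that also acts in arginine gene control, rose by 3.14 in WT cells (8.88e-08) and 2.20 in *ime2Δ* cells (7.83e-06).

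A few more permease genes were singled out after their values were seen. *UGA4*, for 4-aminobutyrate uptake, rose by 0.87 in WT cells (limma, adjusted p = 0.00488) and by 3.92 in *ime2Δ* cells (1.12e-07). *DAL4*, for allantoin uptake, rose by 2.71 in WT cells (3.14e-07) and changed by −0.15 in *ime2Δ* cells (0.605). *PUT4*, for proline uptake, changed by −0.39 in WT cells (0.268) and fell by 3.02 in *ime2Δ* cells (5.88e-06). These changes are from 0 to 6 h and leave out the times between. *PUT4* in WT cells read −0.85 and −0.88 at 0 h, −2.94 and −3.45 at 2 h, and −2.20 and −2.60 at 4 h. Its falls at 2 and 4 h were called. *UGA4* in WT cells read −1.57 and −2.23 at 0 h, −0.09 and 0.13 at 4 h, and −0.92 and −1.14 at 6 h. *DAL4* was called lower at 2 h in WT cells. The strains differed in the change from 0 to 6 h of *UGA4* by −3.05 (1.12e-05), of *DAL4* by 2.86 (1.68e-05) and of *PUT4* by 2.63 (0.000342). Over all 9 transporter genes of this list, 3 had a higher and 5 a lower change in WT cells (median −1.35). Of all genes, 25.0% had a higher and 25.1% a lower change.

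**Figure D4:**
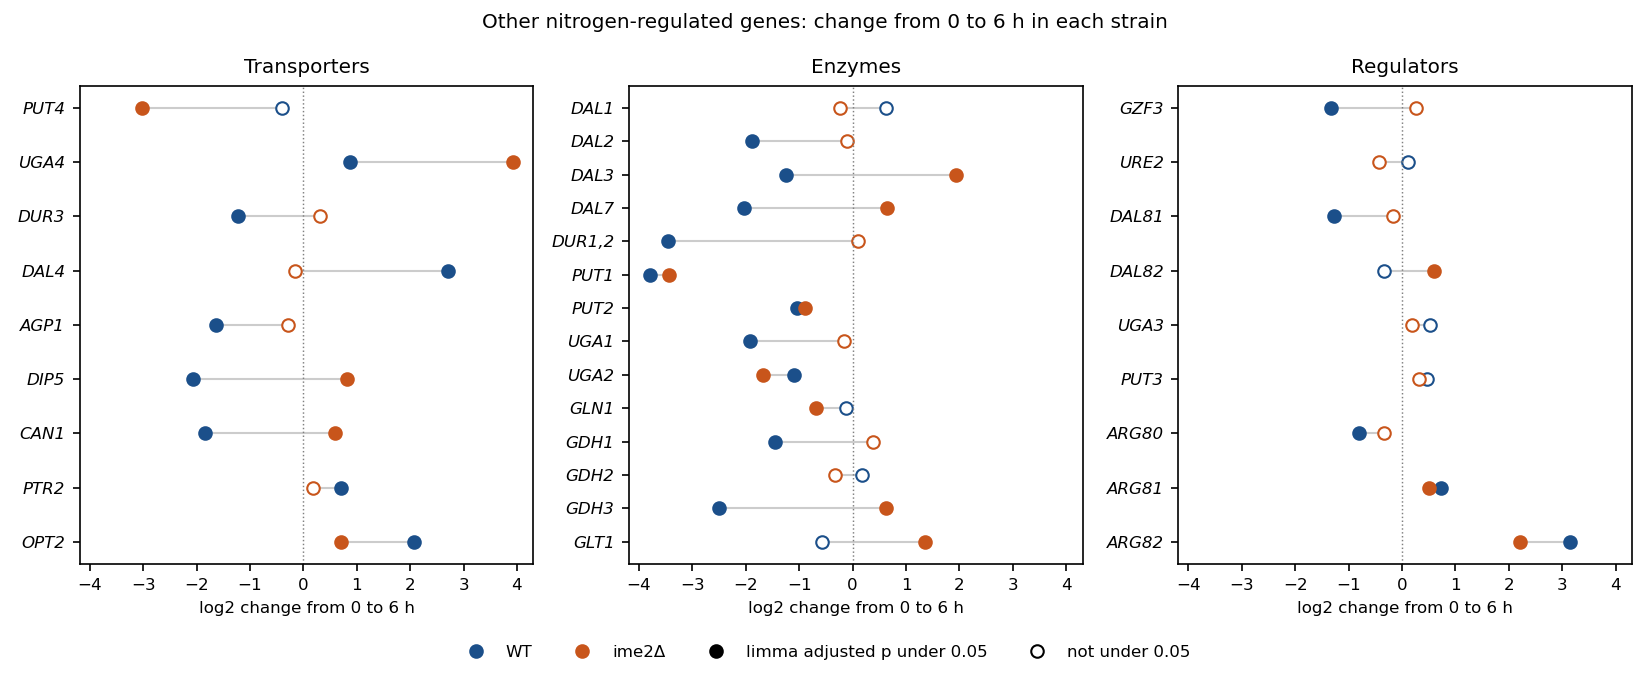
Log2 change from 0 to 6 h in WT (blue) and *ime2Δ* (orange) cells for 32 other nitrogen genes in 3 panels, transporters, enzymes and regulators, with filled points where the limma adjusted p was under 0.05. *PUT1* lies at −3.80 and −3.44 in the 2 strains, *DUR1,2* at −3.46 and 0.11, and *UGA4* at 0.87 and 3.92.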

How the data were processed

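Total RNA of WT and *ime2Δ* cells was measured on 16 single color arrays in 8 groups, taken from the strain, time and replicate in the labels. The authors made the spot intensities with Agilent Feature Extraction 10.7.1.1, which subtracts background, and deposited these processed intensities unscaled. They also deposited log2 values scaled to the median of each array, used here as an alternative. The log2 processed intensity was averaged over the 2 spots of a probe, without flagged spots (0 to 13 per array), and the array median was subtracted, as the methods describe. Between 5939 and 6149 genes per array were above background, and precision is limited by how many arrays there are. Of 6256 systematic names, 5756 matched the RefSeq symbol table.

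One model per gene was fitted to all 8 groups in limma 3.58.1 (R 4.3.3), with 8 residual and 4.58 prior degrees of freedom from eBayes, and p-values were adjusted by Benjamini-Hochberg over all genes but *IME2* and *TRP1*. The code was first tested on simulated data. Figures were drawn with matplotlib 3.10.9. The labels number the 2 replicates, and the paper calls them biological replicates. The replicate numbers, each on 1 slide, were taken to mark 2 independent experiments. Deviations of same-numbered arrays correlated at 0.08 to 0.53 over 28 pairs of groups (median 0.22), 26 of them over 0.1, and a replicate block was an alternative. The p-values measure the spread between these 2 experiments. Also tried were quantile normalization, the 75th percentile in place of the median, normexp with an offset of 50 on the median spot signal, the authors' log2 values, a filter on dim probes, eBayes with trend and robust, only the arrays compared, a minimum log2 difference of 1, and each array left out.

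The genes and lists were chosen with earlier results of these data known. Named genes are the 10 members, the 3 other nitrogen genes with the greatest called change from 0 to 6 h in WT cells, and the 2 genes most like each member that spanned at least 1 log2 unit. *UGA4*, *DAL4* and *PUT4* fall outside this rule and were added after their values were seen. A count of promoter motifs and promoter or protein sequences were not made or used here.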

Additional observations from a re-analysis of the deposited data

Results flagged for a closer look

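The change from 0 h differed between the strains, by a test of the difference itself in limma, for 5 of the 10 genes at 4 h and 7 at 6 h, all lower in WT cells, where 6.20% and 25.1% of all genes had a lower and 9.37% and 25.0% a higher change. Values are WT minus *ime2Δ* on the log2 scale. From 0 to 4 h the values were −3.55 for *MEP2*, −2.57 for *DAL5*, −2.45 for *GAP1*, −2.25 for *MEP3* and −0.75 for *GAT1*. From 0 to 6 h they were −3.73 for *MEP2*, −2.94 for *GAP1*, −2.88 for *MEP3*, −2.00 for *CAR2*, −1.84 for *CAR1*, −1.43 for *MEP1* and −0.77 for *GAT1*. Of these 12 values, the 2 of *GAT1* lost their call when single arrays were left out.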

How the results depend on the processing

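The 60 called results of single genes were recomputed under 25 alternatives. In 1410 of 1500 fits direction and call were kept, in 90 the call was lost and in 0 the sign turned, and 44 of the 60 kept the call under every alternative other than a minimum log2 difference of 1. Of 70 results that were not called, 15 were called under some alternative, the minimum difference apart. The number of members called in *ime2Δ* cells at 2 h was 5 in place of 3 under the 75th percentile. Between the strains at 0 h it was 0 in place of 1 under quantile normalization, normexp, only the arrays compared and the minimum difference, and 0 to 1 without 1 array. For the difference in change from 0 to 2 h it was 1 under quantile normalization, 2 with the replicate block and 0 to 1 without 1 array, in place of 0. The minimum difference left 1 of 7 calls in WT cells at 2 h. Apart from the results given with it, the block changed no call. Some small values that were not called turned their sign. *GAP1* at 6 h in the mutant was 0.15 under the 75th percentile and 0.35 under quantile normalization, and −0.27 to 0.027 without 1 array. *MEP3* was −0.043 under normexp and −0.18 to 0.27 without 1 array, and *MEP2* −0.069 to 0.16, at the same time and strain. *CAR2* was 0.083 under normexp in WT cells at 6 h. With the 75th percentile all genes shifted at the median by 0.26 in either strain at 2 h and by −0.28 between the strains at 6 h. Among called genes of the array, 45.0% were higher at 2 h in WT cells, against 63.9% under that scaling. In the mutant the share was 44.4%, 46.6% and 44.9% at 2, 4 and 6 h, against 66.8%, 63.2% and 62.1%, and for the difference in change to 6 h it was 49.97% against 36.1%. Between the strains at 0 h it was 69.9%, against 54.5% under quantile normalization, and for the difference in change to 2 h 74.0%, against 60.8% with the replicate block.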
